A study of Mus musculus with 18 samples.

Results

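The response to lipopolysaccharide (LPS) of bone marrow-derived macrophages (BMDMs) that lack miR-146a (KO) was measured by RNA sequencing. The members are the 6 KO libraries of the 18 in the series, 3 resting and 3 exposed to LPS, and every gene that entered the fit, which is 11357 of the 21734 protein-coding genes counted. The remaining libraries are wild-type (WT) BMDMs and BMDMs of the 3'F line (3F), in which part of the miR-146a duplex 3' of the seed was exchanged between its strands, 3 resting and 3 with LPS in each genotype. They entered the same fit and serve here as the comparison.

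By the labels, all mice were of a mixed 129 and B6 background and 6 to 7 months old, and 3 mice of each genotype gave marrow. The marrow was grown for 8 to 9 days with M-CSF at 10 ng/ml, plated at 85000 cells per cm2. The medium was then changed for fresh medium with 1 ng/ml LPS (LPS group) or without it (resting group), and separate cultures were harvested 16 h later, so a single late time is described. The mice were age- and sex-matched, and the KO allele was made by gene targeting in embryonic stem cells, so every cell of the mouse carries it. The study's methods describe lines backcrossed to C57BL/6J, and give a younger age for the mice of its mass spectrometry. The table holds protein-coding genes only, so the loss of miR-146a itself was not analysed here.

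LPS, a component of the outer membrane of Gram-negative bacteria, is sensed by Toll-like receptor 4 (TLR4) together with CD14 and MD-2 (Ly96). One branch of the pathway runs through MyD88, IRAK kinases and TRAF6 to NF-kB and the MAP kinases and drives cytokine genes. The other runs through TRIF (Ticam1), TBK1 and IRF3 to interferon-beta, which acts back on the cell through its receptor and the JAK kinases to induce interferon-stimulated genes. MiR-146a is itself induced through NF-kB and is known as a brake on the MyD88 branch by way of Irak1 and Traf6.

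The mature miR-146a-5p is printed because it is the molecule missing from these cells, with its seed (bases 2 to 8) in capitals. RefSeq places it on the minus strand at chr11:43374435-43374456 (GRCm38.p6). Below it stand the stretches of 22 bases in the 3' UTRs of Irak1 (minus strand of chromosome X) and Traf6 (plus strand of chromosome 2) that hold a match to the seed followed by A, read 5' to 3' from the GENCODE transcripts of GRCm38 with the match and that A in capitals.
mmu-miR-146a-5p: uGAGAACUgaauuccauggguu
Irak1 3' UTR site 1, chrX:74015393-74015414: gactcagaggtcaaAGTTCTCA
Irak1 3' UTR site 2, chrX:74015377-74015398: ttctcatgcttggaAGTTCTCA
Traf6 3' UTR site 1, chr2:101697945-101697966: ccgctctggtgttgAGTTCTCA
Traf6 3' UTR site 2, chr2:101698009-101698030: ccctggaaggcttaAGTTCTCA
Traf6 3' UTR site 3, chr2:101698821-101698842: gtactttggagtctAGTTCTCA
Traf6 3' UTR site 4, chr2:101701345-101701366: gactttgctactgcAGTTCTCA

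Neither of these established targets was called in the LPS response of KO. Irak1, the kinase downstream of MyD88, stood at 74.4, 79.7 and 54.6 CPM (counts per 1000000 counts of the library, scaled by TMM) in resting replicates 1 to 3 and at 56.4, 65.9 and 54.9 CPM in the LPS replicates. The 2 groups overlapped, with a log2 fold change of -0.24 ± 0.18 (SE) and an adjusted p of 0.36. Traf6, the ubiquitin ligase that IRAK kinases act through, stood at 62.1, 61.5 and 59.3 CPM resting and 54, 59.6 and 54.8 CPM with LPS (-0.12 ± 0.16 (SE), adjusted p 0.62). Leaving out resting replicate 3 gave -0.38 for Irak1 (adjusted p 0.12) and -0.14 for Traf6 (adjusted p 0.58).

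KO libraries held 9147879 to 17008030 counts. Their macrophage identity was checked on 10 markers, all of which were detected, and their summed level was 62143 to 63696 CPM resting and 72330 to 89226 CPM with LPS. Cd3e, Cd3d and Cd3g (T cells) were at 0 in all KO libraries, as were Cpa3, Fcer1a, Mcpt8 and Tpsb2 of the 6 mast cell and basophil markers and Gp9 among the 7 erythroid and megakaryocyte markers. Other lists were low (sums of 0.449 to 0.941 CPM for 5 B cell markers, 0.869 to 1.91 CPM for 8 dendritic cell markers, and 0.898 to 11.1 CPM for 10 T and NK cell markers), while the erythroid and megakaryocyte sum was 108 to 336 CPM resting and 295 to 381 CPM with LPS, most of it Pf4. The 11 neutrophil markers summed to 60.5 to 77.5 CPM resting and 160.6 to 232 CPM with LPS, and the 8 stromal markers to 0.765 to 1.57 CPM and 4.28 to 5.29 CPM, so both sums were higher in every LPS library than in every resting one. Their part in the results was not tested, and in such bulk samples fewer cells of a type and less RNA per cell cannot be told apart.

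Resting replicate 3 stood apart. On the first principal component of the 6 KO libraries, which held 67.6% of the variance, the LPS libraries lay between -47.9 and -37.3 and resting replicates 1 and 2 at 56.6 and 59.6, while resting replicate 3 lay at 7.45. On the second (19.2%) it lay at -52.7 and the others between 3.57 and 13.2. Counts of resting replicates 1 and 2 differed by a chi-square of 6.95 per degree of freedom, against 109 between replicates 1 and 3 and 100.1 between 2 and 3, and 12.3 to 18.1 among the LPS replicates. The counts below are therefore given with all libraries and again from a fit of the other 17, in which resting replicate 3 was left out and the resting KO group had 2 libraries. In 3F, resting replicate 3 also differed from replicates 1 and 2, by a chi-square of 63.1 and 57.8 per degree of freedom, against 7.17 between those. That 3F library had the fewest counts of the series, 4071084, and was kept in both fits. WT LPS replicates 2 and 3 differed by 48.8. Where no genotype is given, resting replicate 3 means that of KO. A single value for a gene is from all libraries. Shares of members called are to be read against those of all genes tested, 14.3% higher and 12.6% lower, and 20.4% and 15.1% without resting replicate 3.

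**Figure D1:**
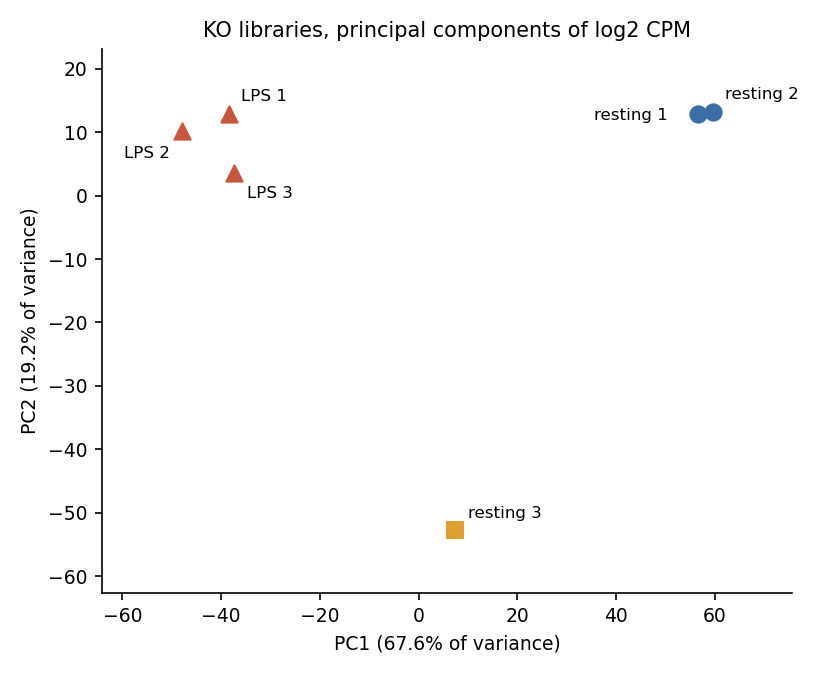
The 6 KO libraries on the first and second principal components of log2 CPM over the genes tested, with the share of variance on each axis; circles are resting replicates 1 and 2, the square is resting replicate 3 and triangles are LPS replicates. Resting replicate 3 lies at 7.45 on the first component, between the other resting libraries (56.6 and 59.6) and the LPS libraries (-47.9 to -37.3), and at -52.7 on the second.

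With all libraries 3059 genes were called in the LPS response of KO, 26.9% of the genes tested, 1627 higher (14.3%) and 1432 lower (12.6%). Without resting replicate 3, 4037 were called (35.5%), 2320 higher (20.4%) and 1717 lower (15.1%). Both fits called 2833 genes, all in the same direction, 1525 higher and 1308 lower. Among these, 179 were at least 4-fold higher in both fits and 176 at least 4-fold lower. In 2704 genes (23.8%) all 3 LPS libraries lay above all 3 resting ones, and in 2140 (18.8%) below them.

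Among genes called in both fits, Saa3, an acute phase serum amyloid protein, had the largest gain in CPM, 26302 CPM. With LPS it reached 10304 CPM per kb of exon, from 211 CPM per kb at rest. Clec4e, the C-type lectin receptor Mincle, went from a mean of 821 to 7645 CPM (log2 fold change 3.22). The largest loss in CPM among them was that of Gpnmb, a lysosomal membrane glycoprotein, from 9402 to 5451 CPM (log2 fold change -0.79, adjusted p 0.0017). These were chosen after their values were seen.

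The next genes were called in both fits, had no overlap between the LPS and the resting libraries and an average log2 CPM of at least 1. The 14 with the largest rise were Saa1, Wfdc21, Cd38, Il1a, Timp1, Lcn2, Saa3, Marco, Cp, Epha4, Il1b, Il12b, Lipg and Ptges. They include secreted acute phase proteins (Saa1, Saa3, Lcn2 and Cp), cytokines (Il1a, Il1b and Il12b), a scavenger receptor (Marco) and the terminal enzyme of prostaglandin E2 synthesis (Ptges). Saa1 was at 0 in all resting libraries and at 5.17, 7.02 and 7.06 CPM with LPS, at least 25.6-fold higher, taking 3 counts per library as the floor. Wfdc21 had 1 count over the resting libraries and 8.33, 15.1 and 15.9 CPM with LPS, a ratio of 498 (95% counting interval 89.1 to 19717). Such intervals and floors cover counting error only. Values in parentheses after a gene are log2 fold changes of LPS over resting with their SE, a gene was called where its adjusted p was under 0.05, and levels given as a change from one value to another are means ± SD of 3 libraries.

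Cd38, an enzyme that consumes NAD+, stood at 0.0618, 0.306 and 0.786 CPM at rest and at 108, 131 and 123 CPM with LPS, a log2 fold change of 8.51 ± 0.59 (SE), and 9.38 without resting replicate 3. It was near 0 in every resting library, replicate 3 included. Saa3 stood at 145, 163 and 1344 CPM at rest and 23399, 30321 and 26838 CPM with LPS (5.61 ± 0.84 (SE)). Here resting replicate 3 was above the other resting libraries and far under any LPS library, and without it the log2 fold change was 7.45 ± 0.70.

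Lcn2, which binds bacterial siderophores, stood at 0.556, 0.0765 and 3.93 CPM at rest and 72, 48.1 and 82.8 CPM with LPS (5.72 ± 0.58 (SE), and 7.60 without resting replicate 3). Timp1, an inhibitor of metalloproteinases, stood at 0.742, 0.841 and 2.69 CPM at rest and 73.3, 78.8 and 56.1 CPM with LPS (5.74 ± 0.59 (SE), and 6.44 without it). Marco varied among the LPS libraries, at 1277, 3861 and 2290.1 CPM, against 28.5, 68.3 and 76.8 CPM at rest (5.42 ± 0.58 (SE)). Cp, the copper-carrying ferroxidase ceruloplasmin, rose from 6.02 ± 4.23 to 232 ± 29.9 CPM (5.33 ± 0.40 (SE), and 6.00 without it) and Epha4, an ephrin receptor, from 0.224 ± 0.147 to 9.16 ± 0.96 CPM (5.24 ± 0.49 (SE)).

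Lipg, endothelial lipase, had 3 counts over the resting libraries and a ratio of LPS to resting level of 39.6 (95% counting interval 13.3 to 195). Leaving out 1 library other than resting replicate 3 moved the log2 fold change of Cd38 to 7.87 (without resting replicate 1), of Lcn2 to 5.12 (without resting replicate 2) and of Epha4 to 5.96 (without resting replicate 1). All 3 kept their call.

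The 14 genes with the largest fall under the same rule were Fosb, Slco2b1, Cd28, Nptx1, Hpgd, Abca6, Smpd3, Gpr34, Hmga2, Lama3, Nanos1, Rasgrp3, Cxcr4 and St6gal1. Fosb, a subunit of the AP-1 transcription factor, stood at 12, 7.72 and 3.03 CPM at rest and had 2 counts over the LPS libraries, a ratio of 0.0056 (95% counting interval 0.000675 to 0.0204). Slco2b1, an organic anion transporter, stood at 10.5, 15.4 and 3.82 CPM at rest and had 3 counts with LPS, a ratio of 0.00666 (95% counting interval 0.00137 to 0.0196). Both were close to absent in every LPS library.

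Cxcr4, the receptor for the chemokine CXCL12, stood at 268, 267 and 132 CPM at rest and 16.3, 11.3 and 22 CPM with LPS (-3.75 ± 0.28 (SE), and -4.02 without resting replicate 3). Gpr34, a receptor for lysophosphatidylserine, stood at 21.7, 24.5 and 1.68 CPM at rest and 1.03, 0.796 and 0.927 CPM with LPS (-4.13 ± 0.65 (SE)). Resting replicate 3 was here close to the LPS libraries, and without it the log2 fold change was -4.64 ± 0.30. Hmga2, a chromatin protein, and Rasgrp3, an exchange factor for Ras, held steady across resting libraries instead. Hmga2 stood at 47.5, 55.4 and 56.9 CPM at rest and 4.89, 2.24 and 3.57 CPM with LPS (-3.89 ± 0.28 (SE)), and Rasgrp3 at 59.2, 65.6 and 51.2 CPM at rest and 4.82, 4.34 and 2.85 CPM with LPS (-3.87 ± 0.28 (SE)).

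St6gal1, a sialyltransferase, stood at 103, 94.1 and 38.8 CPM at rest and 6.13, 5.87 and 5.63 CPM with LPS (-3.75 ± 0.29 (SE)). Hpgd, which inactivates prostaglandins, fell from 17 ± 10.9 to 0.831 ± 0.347 CPM (-4.36 ± 0.69 (SE)) and Cd28, better known as a costimulatory receptor of T cells, from 29.9 ± 11.6 to 0.786 ± 0.574 CPM (-5.25 ± 0.44 (SE)). Nptx1, a pentraxin, fell from 34.9 ± 17.9 to 0.99 ± 0.097 CPM (-5.14 ± 0.50 (SE)). In 13 of the 14 resting replicate 3 was the lowest of the resting libraries, that is, the nearest to the LPS level. Without LPS replicate 3 the log2 fold change was -5.90 for Cd28, -5.74 for Abca6 and -5.14 for Smpd3, and without resting replicate 1 it was -3.21 for Abca6.

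**Figure D2:**
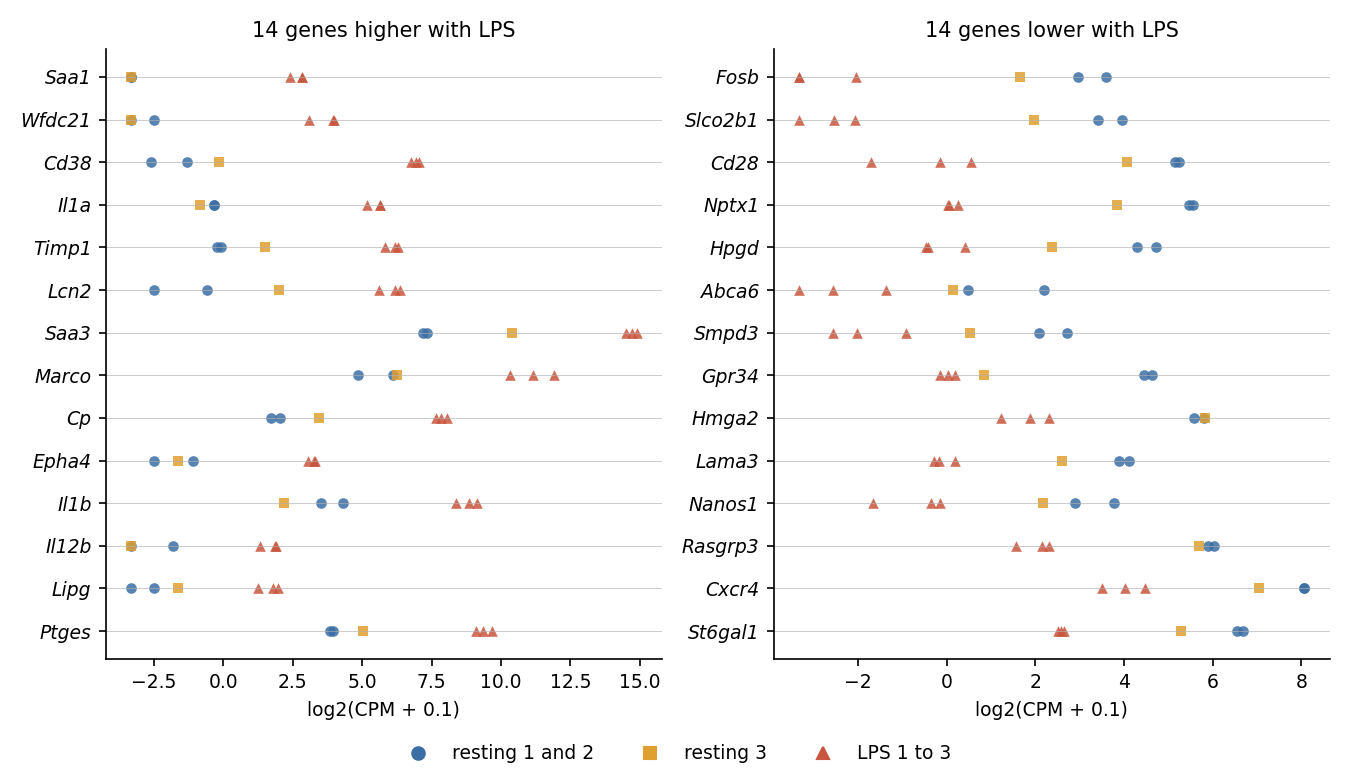
Levels in each KO library of the 14 genes with the largest rise (left) and the 14 with the largest fall (right), as log2(CPM + 0.1); circles are resting replicates 1 and 2, squares resting replicate 3 and triangles LPS replicates 1 to 3. No LPS library overlaps a resting library in any of the 28 genes, by the rule that chose them, and resting replicate 3 lies toward the LPS libraries in Saa3 and Gpr34 but not in Hmga2.

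The remaining results follow 31 gene lists by role. In the sensing pathway, 7 of 32 members were higher and 1 lower in both fits. The shares of all genes tested were 14.3% and 12.6%, and 20.4% and 15.1% without resting replicate 3. Tlr4 itself stood at 284, 270.5 and 245 CPM at rest and 231, 229 and 245 CPM with LPS and was not called (adjusted p 0.3). Myd88, the adaptor of the first branch, stood at 75.8, 67.5 and 118 CPM at rest and 215, 268 and 196 CPM with LPS (1.38 ± 0.23 (SE), adjusted p 0.00028). Ikbke, a kinase that acts on IRF3 like TBK1, stood at 171, 148 and 222 CPM at rest and 448, 504 and 494 CPM with LPS (1.42 ± 0.17 (SE)), and Map3k8, which activates the ERK kinases, rose from 30.7 ± 3.61 to 66.7 ± 6.74 CPM (1.12 ± 0.16 (SE)). Cd14, Irak2, Tbk1 and Mapk14 were also higher (0.66 to 0.82), and Mapk3 (ERK1) was the member that fell (-0.50 ± 0.15 (SE)).

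The NF-kB subunits Nfkb2 (1.09 ± 0.16 (SE)), Nfkb1 (0.81 ± 0.11 (SE)) and Relb (0.89 ± 0.21 (SE)) rose in both fits, and Rela (0.28) and Rel (-0.01) were not called. Nfkb1 stood at 175, 163 and 155 CPM at rest and 258, 343 and 265 CPM with LPS. The call of Relb (log2 fold change 0.63) was lost without LPS replicate 2. In each of the 5 subunits resting replicate 3 was the lowest of the resting libraries, and so did not lie toward the LPS level of those that rose.

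Feedback inhibitors of this pathway were higher in 12 of 24 members tested and lower in 3 (14 and 3 without resting replicate 3), with a median log2 fold change of 0.67 against 0.02 over all genes. Over all genes 14.3% were higher and 12.6% lower (20.4% and 15.1%), so the share lower was near that of all genes. Socs3, which blocks cytokine receptor signalling, stood at 29.2, 21.4 and 12 CPM at rest and 313, 364 and 213 CPM with LPS (3.82 ± 0.34 (SE), adjusted p 7.7e-07). Irak3 (IRAK-M), the kinase-dead member of its family, stood at 48.2, 45.7 and 55.6 CPM at rest and 318, 325 and 292 CPM with LPS (2.65 ± 0.20 (SE)). Their values without resting replicate 3 were close to these (3.55 and 2.73).

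Socs1 stood at 1.3, 1.38 and 6.18 CPM at rest and 20.2, 28.2 and 21.4 CPM with LPS (3.09 ± 0.53 (SE), and 4.11 without resting replicate 3). Tnfaip3 (A20), a ubiquitin-editing enzyme, stood at 127, 114 and 65.6 CPM at rest and 209, 253 and 194 CPM with LPS (1.10 ± 0.22 (SE)), and Nfkbia, the inhibitor IkB-alpha, at 308, 279 and 181 CPM at rest and 557, 699.9 and 516 CPM with LPS (1.21 ± 0.19 (SE)). In both, resting replicate 3 was the lowest of all 6 libraries. Zc3h12c, an RNase of the Regnase family, rose from 48.2 ± 18.9 to 159 ± 14.9 CPM (1.71 ± 0.24 (SE)). The members that fell were Nfkbid (-0.74), the phosphatase Dusp1 (-0.81) and Zfp36 (-0.77), whose protein marks cytokine mRNAs for decay.

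The promoter of Nfkbia is shown because it is a textbook NF-kB target among the genes that rose. The window is the stretch of 250 bases before the RefSeq start on the minus strand of GRCm38.p6, with matches to GGGANTTTC on either strand in capitals. Windows from 250 bases before to 50 after the start were searched, and 2 matches were found here. The motif stood in 1.11% of all such windows, 1.04% of those of genes tested, 2.01% of those of genes higher in both fits and 0.592% of those lower in both. Among feedback inhibitors it stood in 2 of 26 windows (7.69%). GAAANNGAA, the core of the interferon-stimulated response element, stood in 5 of those 26 (19.2%). The Nfkbia window held 1 match to that core, not marked here.
Nfkbia promoter, chr12:55492648-55492897: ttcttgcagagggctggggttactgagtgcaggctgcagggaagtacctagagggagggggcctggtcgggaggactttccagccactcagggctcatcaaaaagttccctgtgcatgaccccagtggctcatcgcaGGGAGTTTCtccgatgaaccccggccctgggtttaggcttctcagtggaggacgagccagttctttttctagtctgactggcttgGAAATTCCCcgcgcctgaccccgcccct

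Inflammatory cytokines were higher in 11 of 21 members tested and lower in 1, and higher in 16 and lower in 1 without resting replicate 3, against 14.3% and 12.6% of all genes, and 20.4% and 15.1% without it. Il1b stood at 19.7, 11.2 and 4.49 CPM at rest and 458, 562 and 332 CPM with LPS (5.22 ± 0.77 (SE), adjusted p 0.00011), and Il1a at 0.68, 0.688 and 0.449 CPM at rest and 49.6, 49.7 and 35.9 CPM with LPS (6.15 ± 0.49 (SE)). Both interleukins were lowest in resting replicate 3. Tnf stood at 97.9, 84.3 and 71.5 CPM at rest and 185, 269.9 and 169 CPM with LPS (1.30 ± 0.21 (SE), adjusted p 0.00022).

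Il6 had 1 count over the resting libraries, in replicate 3, and stood at 3.24, 0.941 and 1.93 CPM with LPS, a ratio of 78.4 (95% counting interval 13.7 to 3132). Against resting replicates 1 and 2, where it was at 0, it was at least 9.81-fold higher. Il12b, which encodes the p40 chain of interleukins 12 and 23, had 3 counts at rest and stood at 3.65, 2.39 and 3.57 CPM with LPS, a ratio of 40.8 (95% counting interval 13.7 to 201). Both transcripts were scarce even with LPS. Il10, an anti-inflammatory cytokine, stood at 4.82, 1.45 and 7.75 CPM at rest and 12, 6.59 and 7.49 CPM with LPS, overlapped and was not called (0.93, adjusted p 0.24, and 1.44, adjusted p 0.077, without resting replicate 3).

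Il1rn, the decoy ligand of the interleukin 1 receptor, rose from 61.2 ± 32.3 to 348 ± 21 CPM (2.51 ± 0.41 (SE)), as did Il27 (1.94), Ebi3 (1.59), Tnfsf15 (2.03), Mif (0.71) and Ifnb1 (2.78). Ifnb1, interferon-beta, stood at 0, 0.153 and 0.674 CPM at rest and 1.65, 2.17 and 0.927 CPM with LPS. In the fit without resting replicate 3 the log2 fold change was 4.35 for Ifnb1 and 3.00 for Il27. The member that fell was Osm (-1.59 ± 0.29 (SE)). Called without resting replicate 3 only were Il15, Il18, Csf1, Tnfsf10 and Il18bp, with log2 fold changes of 1.28 to 4.83 in that fit. Tnfsf10 (TRAIL), an interferon target, stood at 1.55, 1.68 and 43.1 CPM at rest and 40.1, 50.3 and 47.4 CPM with LPS.

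Among chemokines 11 of 20 were higher and 2 lower (12 and 2 without resting replicate 3), against 14.3% and 12.6% of all genes (20.4% and 15.1%). Ccl5, which draws T cells and monocytes, stood at 0.989, 1.22 and 28.3 CPM at rest and 139.6, 292 and 265 CPM with LPS (4.61 ± 0.82 (SE), and 7.71 ± 0.44 without resting replicate 3). Cxcl10, a ligand of CXCR3 that interferon induces, stood at 24, 12.2 and 196 CPM at rest and 409, 686 and 492 CPM with LPS (2.78 ± 0.83 (SE), adjusted p 0.02, and 4.86, adjusted p 7.6e-05, without it). For both, resting replicate 3 was far above the other resting libraries and still below every LPS library. Cxcl9 and Cxcl11, the other ligands of CXCR3, were scarce, at 2.07, 1.74 and 1.85 CPM and 1.1, 2.61 and 2.14 CPM with LPS, and Cxcl3, a ligand of CXCR2, stood at 6.54, 2.17 and 4.64 CPM. The call of Cxcl10 (log2 fold change 2.27 to 2.53) was lost without LPS replicate 2 or resting replicate 1 or 2. The call of Cxcl11 (log2 fold change 2.72 to 3.40) was lost without LPS replicate 2 or 3 or resting replicate 1 or 2. Without resting replicate 1 the log2 fold change of Ccl5 was 4.02.

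Cxcl1 and Cxcl2, which draw neutrophils and are early targets of NF-kB, were not called (-0.14 and -0.06). Cxcl2 stood at 138, 77 and 20 CPM at rest and 84.9, 71.5 and 70.5 CPM with LPS. Cx3cl1 (-2.40 ± 0.80 (SE)) and Cxcl14 (-2.24 ± 0.32 (SE)) fell. Ccl3 was called with all libraries (1.07, adjusted p 0.023) but not without resting replicate 3 (0.79, adjusted p 0.063), while Ccl2 and Ccl7 were called only without it (1.59 and 2.35). Ccl2, a monocyte attractant, stood at 32.9, 26.2 and 123 CPM at rest and 101, 83.3 and 82.2 CPM with LPS.

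Interferon-stimulated genes depended on resting replicate 3. With all libraries 5 of 36 were called, all higher, near the 14.3% of all genes, with a median log2 fold change of 1.29. Without resting replicate 3, 34 of 36 were called higher, with a median of 3.21, against 20.4% of all genes. Resting replicate 3 was above both other resting libraries in all 36 and above every LPS library in 12. Ifit1, which binds viral RNA, stood at 55.5, 32.8 and 883 CPM at rest and 1180.4, 1668 and 1241 CPM with LPS, so that the log2 fold change was 2.08 ± 0.89 (SE) with all libraries (adjusted p 0.099) and 4.95 ± 0.67 without resting replicate 3 (adjusted p 2.8e-05).

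Irf7, the transcription factor that amplifies interferon production, stood at 48.8, 32 and 815 CPM at rest and 709, 760.2 and 601 CPM with LPS (1.21, adjusted p 0.28, and 4.09, adjusted p 2e-06). Mx1, an antiviral GTPase, stood at 24.7, 16 and 922 CPM at rest and 979, 1391 and 969 CPM with LPS (not called, adjusted p 0.23, and 5.77 without resting replicate 3). In Irf7 resting replicate 3 was above every LPS library, and in Mx1 just under them. The 5 called with all libraries were Mx2, Xaf1, Parp14, Ddx58 (RIG-I) and Eif2ak2 (PKR), at 2.06, 1.81, 1.69, 1.57 and 1.22, and without resting replicate 3 they stood at 3.79, 2.72, 2.51, 3.20 and 2.11. The call of Mx2 (log2 fold change 1.59 to 2.13) was lost without LPS replicate 1 or 2 or resting replicate 1 or 2. The call of Xaf1 (log2 fold change 1.44 to 1.55) was lost without LPS replicate 2 or resting replicate 1 or 2. The call of Ddx58 (log2 fold change 1.13 to 1.62) was lost without any 1 of the other KO libraries. Ifi44 and Ifi44l were called in neither fit, at 4.20 (adjusted p 0.067) and 4.04 (adjusted p 0.14) without resting replicate 3.

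Promoters of Ifit1 and Cxcl10 are shown because both genes were raised in resting replicate 3, with matches to the core of the interferon-stimulated response element, GAAANNGAA, on either strand in capitals. Each is the stretch of 250 bases before the RefSeq start (GRCm38.p6), Ifit1 on the plus and Cxcl10 on the minus strand. Ifit1 holds 3 matches, of which the first pair overlap, and Cxcl10 holds 1. In windows from 250 bases before to 50 after the start the core stood in 8.56% of all promoters and 7.49% of those of genes tested. Of the 36 interferon-stimulated genes tested, 28 had a RefSeq window, some more than 1, and 18 of 33 windows held it (54.5%). The share was 15.1% in the windows of genes higher without resting replicate 3 only, 8.3% in those of genes higher in both fits and 5.92% in those lower in both.
Ifit1 promoter, chr19:34640639-34640888: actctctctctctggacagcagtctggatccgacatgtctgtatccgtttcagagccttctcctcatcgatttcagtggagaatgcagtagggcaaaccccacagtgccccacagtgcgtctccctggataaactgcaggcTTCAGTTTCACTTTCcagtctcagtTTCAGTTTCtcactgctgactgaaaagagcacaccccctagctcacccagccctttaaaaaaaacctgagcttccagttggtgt
Cxcl10 promoter, chr5:92348890-92349139: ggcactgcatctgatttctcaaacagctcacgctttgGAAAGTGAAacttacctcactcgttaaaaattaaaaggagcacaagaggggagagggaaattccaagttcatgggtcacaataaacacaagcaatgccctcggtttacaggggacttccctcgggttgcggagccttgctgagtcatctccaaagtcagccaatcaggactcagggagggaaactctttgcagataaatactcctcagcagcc

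Of interferon receptors and their signalling chain, 6 of 14 were higher with all libraries and 10 without resting replicate 3, against 14.3% and 20.4% of all genes, with medians of 0.83 and 0.85. Jak2, a kinase that binds to cytokine receptors, stood at 73.3, 73.6 and 126 CPM at rest and 234, 248 and 261 CPM with LPS (1.45 ± 0.20 (SE)), and Irf1 rose from 118 ± 31.8 to 294 ± 73.6 CPM (1.32 ± 0.26 (SE)). The receptor chains Ifnar2 (1.00), Ifngr2 (0.84) and Ifnar1 (0.83) rose as well.

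Guanylate-binding proteins and immunity-related GTPases attack vacuoles that hold microbes. With all libraries 3 of 17 members were called, and 16 without resting replicate 3, all higher, against 14.3% and 20.4% of all genes. The medians were 1.73 and 4.27. Gbp5, which promotes inflammasome assembly, stood at 17.5, 13.8 and 128 CPM at rest and 275, 526 and 345 CPM with LPS (2.86 ± 0.74 (SE), and 4.61 without it). Gbp6 (2.83) and Gbp7 (1.76) were the other members called with all libraries, and stood at 5.74 and 3.50 without resting replicate 3. The call of Gbp6 (log2 fold change 2.22 to 2.29) was lost without resting replicate 1 or 2. The call of Gbp7 (log2 fold change 1.32 to 1.87) was lost without any 1 of the other KO libraries. The interferon-stimulated core stood in 10 of 12 promoter windows of these genes. Tgtp1 and Tgtp2 are near-identical, as are Ifit3 and Ifit3b, so their counts are uncertain.

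Genes of MHC class I presentation, which loads peptides from the cytosol, were higher in 8 of 20 members with all libraries. Without resting replicate 3 they were higher in 20 of 20. The medians were 0.95 and 1.81, and 14.3% and 20.4% of all genes were higher. Psme2, a proteasome activator, stood at 92.8, 88 and 352 CPM at rest and 519.5, 629 and 558 CPM with LPS (1.68 ± 0.42 (SE), and 2.65 without it), and the peptide transporter Tap1 at 57.2, 54.9 and 398 CPM at rest and 445, 598 and 445 CPM with LPS (1.55 ± 0.55 (SE), and 3.15 without it). B2m, the light chain of class I, rose from 978 ± 428 to 1760.0 ± 37.8 CPM (0.85 ± 0.26 (SE)). The immunoproteasome genes Psmb8, Psmb9 and Psmb10 were called without resting replicate 3 only (2.49, 2.72 and 2.44). The call of Tap1 (log2 fold change 1.13 to 1.62) was lost without any 1 of the other KO libraries. The call of H2-Q4 (log2 fold change 0.77 to 0.96) was lost without LPS replicate 2 or 3 or resting replicate 1 or 2. Counts of H2-Q genes, close paralogs, are uncertain.

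Of MHC class II genes 2 of 10 were higher and 3 without resting replicate 3, against 14.3% and 20.4% of all genes. H2-Ab1 stood at 30.9, 19.7 and 15 CPM at rest and 78.9, 74 and 47.4 CPM with LPS (1.60 ± 0.31 (SE)), and its master regulator Ciita was not called (-0.64). The call of H2-DMb1 (log2 fold change 0.37 to 0.53) was lost without any 1 of the other KO libraries. Of 13 costimulatory and checkpoint genes 5 were higher and 3 lower (7 and 3 without resting replicate 3). Among all genes 14.3% were higher and 12.6% lower (20.4% and 15.1%). Cd274 (PD-L1) stood at 44.4, 50 and 206 CPM at rest and 385, 575 and 449.7 CPM with LPS (2.24 ± 0.51 (SE), and 3.31 without it) and Havcr2 (TIM-3) at 65.8, 70.3 and 60.2 CPM at rest and 7.23, 6.44 and 7.7 CPM with LPS (-3.20 ± 0.16 (SE)). Cd83 stood at 99.4, 88.9 and 10.2 CPM at rest and 9.85, 11 and 8.56 CPM with LPS (-2.76 ± 0.56 (SE)), with resting replicate 3 next to the LPS libraries. Slamf1 had 3 counts at rest, a ratio of 14.4 (95% counting interval 4.65 to 72.4), and Cd40 rose from 40.3 ± 37.4 to 144 ± 30 CPM (1.85 ± 0.46 (SE), and 2.94 without it).

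Inflammasome genes were higher in 8 of 12 members and in 11 without resting replicate 3, against 14.3% and 20.4% of all genes, with none lower. Mefv (pyrin), an inflammasome sensor, stood at 13, 12.5 and 13.6 CPM at rest and 112, 155 and 115 CPM with LPS (3.29 ± 0.39 (SE)). Its resting libraries were alike, replicate 3 included. The proteases Casp4 (1.51 ± 0.27 (SE)) and Casp1 (1.16 ± 0.27 (SE)) rose, as did Nlrc4 (1.02) and Nlrp3 (0.84). Gsdmd, the pore protein that caspases release, was called without resting replicate 3 only (0.79 and 1.46).

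Acute phase and alarmin genes were higher in 10 of 18 members with all libraries, against 14.3% of all genes. Without resting replicate 3, 14 were higher and 1 lower, against 20.4% and 15.1%. Hp (haptoglobin) stood at 14.8, 19 and 135 CPM at rest and 1119.9, 1652 and 1397 CPM with LPS (4.64 ± 0.71 (SE), and 6.36 without it), and Mmp14, a membrane metalloproteinase, rose from 35.8 ± 1.45 to 589.7 ± 129 CPM (4.04 ± 0.36 (SE)). Cfb, complement factor B, moved from 3.85 with all libraries to 8.42 without resting replicate 3, from 0.124, 0 and 6.51 CPM at rest to 23.1, 28.7 and 27.7 CPM with LPS. Chil1 rested on 1 library, at 0.124, 0.0765 and 3.03 CPM at rest and 0.207, 1.09 and 103 CPM with LPS, and without LPS replicate 3 its log2 fold change of 5.31 became -0.54 (adjusted p 0.77). Its call was also lost without resting replicate 1 (4.64) or 2 (4.71), and without resting replicate 3 it stood at 8.28.

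S100a8, counted in this list and among the neutrophil markers, stood at 10.8, 16.7 and 48.3 CPM at rest and 30.9, 43.1 and 39.4 CPM with LPS and was called without resting replicate 3 only (1.46). The neutrophil sum was 60.5 to 77.5 CPM at rest and 160.6 to 232 CPM with LPS, including Csf3r, the G-CSF receptor, at 44.7, 44.5 and 23.9 CPM at rest and 122, 164 and 143 CPM with LPS (1.92 ± 0.29 (SE)). Of the genes that define neutrophils, Ly6g and Elane were too low to be tested, and Mpo and Ltf were not called, at 0.185, 0.0765 and 0 and 1.24, 1.61 and 0.898 CPM at rest and 0.0689, 0.217 and 0.285 and 0.551, 3.19 and 2.5 CPM with LPS. Camp, of the same list, was called (2.80, and 3.82 without resting replicate 3). The call of Camp (log2 fold change 2.41 to 2.42) was lost without resting replicate 1 or 2.

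**Figure D3:**
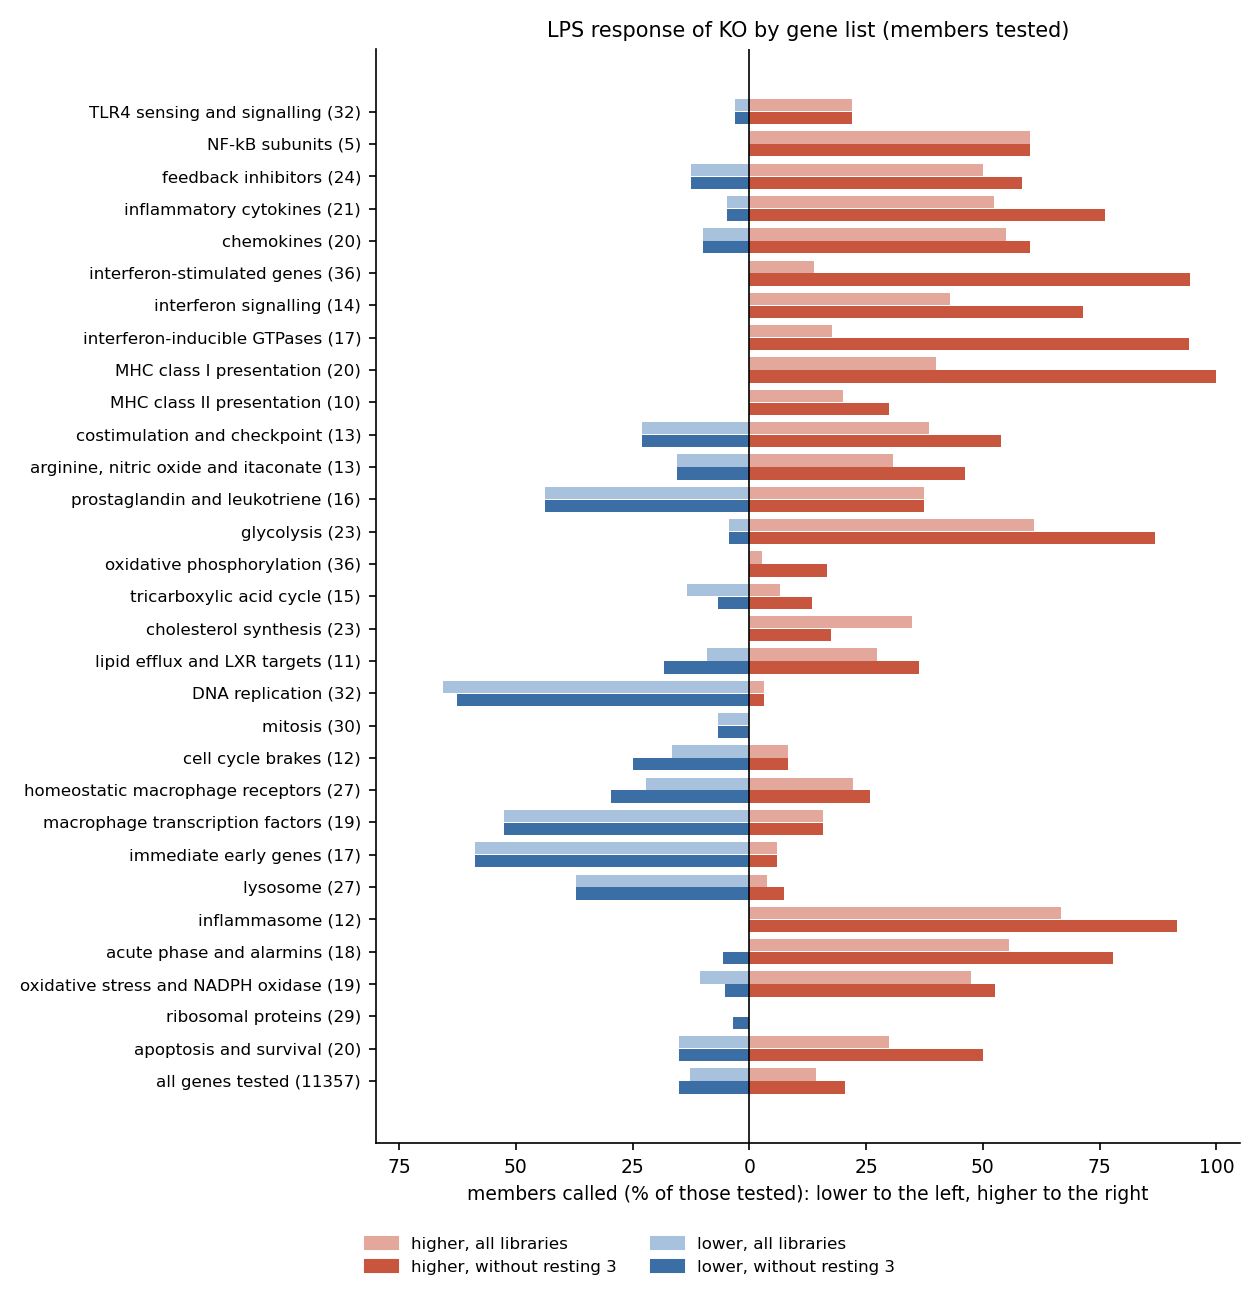
Share of the tested members of each gene list called higher (to the right) or lower (to the left) in the LPS response of KO, in percent of the members tested (in brackets); pale bars use all libraries and dark bars leave out resting replicate 3. Interferon-stimulated genes go from 5 to 34 of 36 called higher, MHC class I genes from 8 to 20 of 20, and DNA replication genes from 21 to 20 of 32 called lower.

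Of the genes of arginine, nitric oxide and itaconate metabolism 4 of 13 were higher and 2 lower (6 and 2 without resting replicate 3). The counts compare with 14.3% and 12.6% of all genes (20.4% and 15.1%). Nos2, inducible nitric oxide synthase, stood at 0.0618, 0.153 and 9.09 CPM at rest and 23.1, 30.5 and 43.2 CPM with LPS (3.60 ± 0.97 (SE), and 8.17 ± 1.13 without it). Slc7a2, which imports its substrate arginine, stood at 19.6, 26.2 and 35.4 CPM at rest and 425, 423 and 433 CPM with LPS (3.99 ± 0.37 (SE)). Acod1, which makes itaconate, stood at 203, 142 and 1139 CPM at rest and 4443, 5415 and 3968 CPM with LPS (3.22 ± 0.59 (SE), and 4.74 without it), and Gch1, needed for the cofactor of Nos2, rose from 50.9 ± 25.4 to 149 ± 28.1 CPM. Without resting replicate 1 or 2 the log2 fold change of Nos2 was 2.91 or 2.98. Arg1 and Ass1 were called without resting replicate 3 only (3.51 and 3.91), and the polyamine enzymes Sat1 (-0.67) and Odc1 fell, the latter from 49.7 ± 10.8 to 25 ± 1.3 CPM.

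Genes of oxidative stress and the NADPH oxidase were higher in 9 of 19 members and lower in 2 (10 and 1 without resting replicate 3). Among all genes 14.3% were higher and 12.6% lower (20.4% and 15.1%). Sod2, the mitochondrial superoxide dismutase, stood at 335, 318 and 572 CPM at rest and 2788, 3130.1 and 2679.6 CPM with LPS (2.81 ± 0.20 (SE)), and Gsr, glutathione reductase, at 122, 150.1 and 149 CPM at rest and 444, 546 and 492 CPM with LPS (1.82 ± 0.12 (SE)). Cybb, the core of the phagocyte oxidase, rose from 2585 ± 665 to 7055 ± 524 CPM, Prdx5 from 753 ± 412 to 3027 ± 367 CPM and Slc7a11, the cystine importer, from 57.8 ± 17.1 to 196 ± 14.2 CPM. Nqo1 was lower with all libraries (-1.76, adjusted p 0.034) through resting replicate 3, at 8.84, 11.2 and 78.3 CPM at rest against 6.89, 10.1 and 11.6 CPM with LPS, and its value without it was -0.07 (adjusted p 0.87).

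In glycolysis, which converts glucose to pyruvate and lactate, 14 of 23 members were higher and 1 lower, and 20 and 1 without resting replicate 3. The shares of all genes were 14.3% and 12.6%, and 20.4% and 15.1%. Pfkfb3, which makes the activator of phosphofructokinase, stood at 29.4, 28.2 and 37.8 CPM at rest and 160.3, 166 and 130.4 CPM with LPS (2.26 ± 0.18 (SE)). The lactate exporter Slc16a3 stood at 151, 156 and 400.3 CPM at rest and 507, 602 and 551 CPM with LPS (1.23 ± 0.28 (SE), and 1.85 without it) and Pgk1 at 369, 405 and 830.0 CPM at rest and 1121, 1259 and 1268 CPM with LPS (1.19 ± 0.26 (SE)). Resting replicate 3 was above both other resting libraries in 21 of the 23. Ldha (0.99), Slc2a1 (0.65) and Hk2 (0.51) rose too, and the glucose transporter Slc2a3 was the member that fell (-1.58 ± 0.17 (SE)).

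Genes of oxidative phosphorylation showed 1 of 36 members higher (6 without resting replicate 3), against 14.3% (20.4%) of all genes, and none lower. Their median was 0.24. In the tricarboxylic acid cycle Idh1 (-0.76) and Mdh1 (-0.43) were lower and Mdh2 (0.37) higher of 15 tested, against 12.6% and 14.3% of all genes, and 2 were higher and 1 lower without resting replicate 3. The call of Idh1 (log2 fold change -0.66 to -0.64) was lost without resting replicate 1 or 2. Calls of Mdh1 (log2 fold change -0.47 to -0.41) and Mdh2 (log2 fold change 0.28 to 0.38) were lost without any 1 of the other KO libraries. Mdh1 was not called either without resting replicate 3 (-0.43). Of 23 genes of cholesterol synthesis 8 were higher with all libraries and 4 without resting replicate 3, none by more than 0.84. The shares of all genes higher were 14.3% and 20.4%. Resting replicate 3 was below both other resting libraries in 20 of the 23 cholesterol genes.

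Hsd17b7 (0.66 ± 0.17 (SE)) was called in both fits, Fdps (0.84, adjusted p 0.0499) only with all libraries. The call of Fdps (log2 fold change 0.71 to 0.81) was lost without LPS replicate 1 or 2 or resting replicate 2. The call of Mvk (log2 fold change 0.47 to 0.63) was lost without any 1 of the other KO libraries. The call of Pmvk (log2 fold change 0.49 to 0.51) was lost without LPS replicate 3 or resting replicate 1. Among 11 targets of the liver X receptor and lipid efflux genes, Abca1, which exports cholesterol, stood at 395, 374 and 242 CPM at rest and 619, 706 and 610.2 CPM with LPS (0.94 ± 0.25 (SE)), Scd2 (1.03) and Lpcat3 (0.50) rose, and Mylip, which degrades the LDL receptor, fell (-1.13 ± 0.14 (SE)). The counts were 3 higher and 1 lower, and 4 and 2 without resting replicate 3, against 14.3% and 12.6% of all genes (20.4% and 15.1%). The call of Abca1 (log2 fold change 0.81) was lost without LPS replicate 2. The call of Lpcat3 (log2 fold change 0.43 to 0.48) was lost without LPS replicate 2 or resting replicate 1 or 2.

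The eicosanoid genes split. Of 16, 6 were higher and 7 lower in both fits, against 26.9% of all genes called in either direction (35.5% without resting replicate 3). Ptges, which makes prostaglandin E2, stood at 14.2, 15.3 and 32.9 CPM at rest and 650.5, 827 and 548 CPM with LPS (5.04 ± 0.29 (SE), adjusted p 6.5e-09). The other risers were the phospholipases Pla2g4a (1.14) and Pla2g7 (1.22), the receptors Ptger4 (1.27) and Ptgir (0.69), and Ptges3 (0.41). Every gene of the leukotriene branch tested fell, namely Alox5 (-2.54 ± 0.42 (SE), and -1.92 without resting replicate 3), Alox5ap (-0.52), Lta4h (-0.45) and Ltc4s (-2.17 ± 0.23 (SE)).

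Alox5, 5-lipoxygenase, stood at 8.28, 6.19 and 19.5 CPM at rest and 1.52, 1.38 and 2.85 CPM with LPS, and Ltc4s, leukotriene C4 synthase, at 5.19, 5.81 and 6.74 CPM at rest and 1.52, 1.45 and 0.927 CPM with LPS. The cyclooxygenase Ptgs1 stood at 15.3, 15.1 and 19.4 CPM at rest and 2.62, 3.55 and 4.71 CPM with LPS (-2.19 ± 0.24 (SE)). In all of these resting replicate 3 was the highest of the resting libraries, away from the LPS level. The inducible cyclooxygenase Ptgs2 stood at 3.09, 2.14 and 0.337 CPM at rest and 7.23, 3.98 and 4.64 CPM with LPS and was not called (1.41, adjusted p 0.13). Hpgds, which makes prostaglandin D2, and Ptger2 fell as well (-0.98 and -0.94).

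DNA replication genes fell, 21 of 32 with all libraries and 20 without resting replicate 3, against 12.6% and 15.1% of all genes, with medians of -0.82 and -0.72. Mcm5, a subunit of the replicative helicase, stood at 44.9, 54.8 and 60.2 CPM at rest and 19.1, 15 and 23.6 CPM with LPS (-1.47 ± 0.22 (SE), adjusted p 0.00014), and Mcm7 at 26.6, 33.3 and 28.4 CPM at rest and 8.82, 6.73 and 10.8 CPM with LPS (-1.74 ± 0.18 (SE)). The other subunits of the helicase fell too, Mcm2 (-1.65), Mcm3 (-0.50), Mcm4 (-0.83) and Mcm6 (-1.34). Ccne2, the cyclin of S phase entry, stood at 15.5, 17.3 and 9.66 CPM at rest and 2.96, 2.61 and 3.57 CPM with LPS (-2.22 ± 0.30 (SE)), Rrm2, a subunit of ribonucleotide reductase, at 15, 17.7 and 6.96 CPM at rest and 3.79, 1.88 and 4.92 CPM with LPS (-1.92 ± 0.35 (SE)), and Pole at 13, 12 and 10.9 CPM at rest and 3.79, 2.03 and 4.85 CPM with LPS (-1.75 ± 0.29 (SE)). E2f1 was the member that rose (0.56 ± 0.14 (SE)).

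The promoter of Mcm5 is shown for the E2F motif TTTNNCGC, with 2 overlapping matches on opposite strands in capitals. It is the stretch of 250 bases before the RefSeq start on the plus strand (GRCm38.p6). In windows from 250 bases before to 50 after the start the motif stood in 5.17% of all promoters, 8.28% of those of genes tested and 13 of 31 of those of DNA replication genes (41.9%). The share was 8.88% over all genes lower in both fits and 5.78% over those higher in both.
Mcm5 promoter, chr8:75109259-75109508: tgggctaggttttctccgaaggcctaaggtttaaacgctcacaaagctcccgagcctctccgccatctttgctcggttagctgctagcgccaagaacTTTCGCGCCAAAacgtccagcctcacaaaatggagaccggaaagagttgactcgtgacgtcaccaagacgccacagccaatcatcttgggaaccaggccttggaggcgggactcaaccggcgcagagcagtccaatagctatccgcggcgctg

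Mitosis genes were called in 2 of 30, both lower, in either fit, against 12.6% of all genes lower (15.1% without resting replicate 3). Cenpa, the histone of the centromere, fell (-1.38 ± 0.27 (SE)), and Smc2 (-0.59) was called with all libraries and Ncaph (-0.87) without resting replicate 3. The call of Smc2 (log2 fold change -0.63 to -0.47) was lost without LPS replicate 1 or 2 or resting replicate 1 or 2. Mki67, the proliferation marker, stood at 159, 151 and 78.8 CPM at rest and 131, 103 and 118 CPM with LPS and was not called (-0.15, adjusted p 0.78). Ccnb1, the mitotic cyclin, stood at 8.72, 9.79 and 9.88 CPM at rest and 11.2, 5.65 and 10.8 CPM with LPS (-0.03, adjusted p 0.96). Of 12 cell cycle brakes Btg1 (-0.52) and Btg2 (-0.84) were lower and Gadd45b (0.76) higher, shares near the 12.6% and 14.3% of all genes. In the fit without resting replicate 3 the counts were 3 lower and 1 higher, with Cdkn2c (-0.68, adjusted p 0.03) the added one. The call of Btg2 (log2 fold change -0.60) was lost without resting replicate 1. The call of Gadd45b (log2 fold change 0.63 to 0.75) was lost without LPS replicate 1 or 2 or resting replicate 1 or 2.

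Of 27 receptors and related genes of unstimulated macrophages 6 were higher and 6 lower (7 and 8 without resting replicate 3), against 14.3% and 12.6% of all genes (20.4% and 15.1%). Besides Marco, the risers included Adgre1 (F4/80), at 1803, 1797 and 1134 CPM at rest and 4291, 4895 and 4772 CPM with LPS (1.56 ± 0.18 (SE), and 1.37 without resting replicate 3), Timd4, which binds phosphatidylserine (2.15, and 3.26 without it), Cd163 (1.47) and Msr1 (0.92). Besides Gpr34 and Slco2b1, the lectin Clec10a fell (-2.51 ± 0.27 (SE)), as did Gas6 (-1.58) and Trem2 (-0.68). Cx3cr1 was lower with all libraries (-0.88, adjusted p 0.027) and not without resting replicate 3 (-0.47, adjusted p 0.15). Mrc1, the mannose receptor, turned from 0.02 (adjusted p 0.98) to -0.41 (adjusted p 0.032), at 799, 696 and 176 CPM at rest and 618, 537 and 536 CPM with LPS.

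Macrophage transcription factors were lower in 10 of 19 members and higher in 3, in both fits. Of all genes 12.6% were lower and 14.3% higher (15.1% and 20.4% without resting replicate 3). Pparg, a lipid-sensing nuclear receptor, stood at 26.6, 25.1 and 12.1 CPM at rest and 3.17, 2.61 and 2.71 CPM with LPS (-2.92 ± 0.27 (SE)), and Bhlhe40 at 21, 24.2 and 18.2 CPM at rest and 3.31, 3.33 and 3.28 CPM with LPS (-2.68 ± 0.31 (SE)). Irf4, a factor of alternative activation, was scarce (1.61, 1.22 and 0.674 CPM at rest) and fell (-3.01 ± 0.67 (SE)). Klf4 (-2.07), Cebpa (-1.72), Klf2 (-1.25), Egr2 (-1.71), Rxra (-0.83) and Nr4a1 (-2.86) fell too, as did Id2. Cebpb, a factor of inflammatory genes, rose (0.72 ± 0.16 (SE)), with Tfec (0.75) and Mitf (0.48). Spi1 (PU.1), which defines the lineage, was not called (0.31, adjusted p 0.3).

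Immediate early genes were lower in 10 of 17 members and higher in 1, Atf3 (0.46), in both fits. The shares of all genes were 12.6% and 14.3% (15.1% and 20.4% without resting replicate 3). Egr1 stood at 17.6, 14.8 and 1.68 CPM at rest and 1.58, 3.04 and 2.35 CPM with LPS (-2.32 ± 0.58 (SE), and -2.80 without resting replicate 3), and Nr4a1 at 16.4, 12.6 and 3.37 CPM at rest and 1.93, 1.01 and 1.57 CPM with LPS (-2.86 ± 0.48 (SE)). Resting replicate 3 was below both other resting libraries in 14 of the 17, and in Egr1 it lay within the LPS range. Fos (-1.83), Myc (-2.07), Egr3 (-2.56), Ier2 (-0.81) and Jun (-0.46) were lower as well. The call of Egr3 (log2 fold change -2.88 to -1.88) was lost without LPS replicate 1 or 2 or resting replicate 1 or 2. All cultures had fresh medium at the start of the 16 h.

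Lysosome genes were lower in 10 of 27 members and higher in 1, Ctsz (0.65), with all libraries, and 10 and 2 without resting replicate 3, against 12.6% and 14.3% of all genes (15.1% and 20.4%). Atp6v0d2, a proton pump subunit, stood at 88.6, 137 and 27.7 CPM at rest and 14.5, 18.2 and 13.7 CPM with LPS (-2.45 ± 0.41 (SE)), and the others fell by less, among them Npc1 (-0.81), Gaa (-0.74) and Mcoln1 (-0.70). Tfeb, the transcription factor of lysosome genes, fell too (-0.62). The call of Ctsd (log2 fold change -0.42 to -0.34) was lost without LPS replicate 1 or 3 or resting replicate 1 or 2. Of 20 genes of apoptosis and survival 6 were higher and 3 lower (10 and 3 without resting replicate 3), against 14.3% and 12.6% of all genes (20.4% and 15.1%). Cflar, which blocks caspase 8, stood at 283, 276 and 266 CPM at rest and 765, 929.8 and 754 CPM with LPS (1.57 ± 0.15 (SE)), and Fas at 18.2, 14.2 and 18.1 CPM at rest and 49.6, 55 and 50.6 CPM with LPS (1.62 ± 0.13 (SE)). Pmaip1 (NOXA) was lower (-1.44 ± 0.36 (SE)). Bcl2a1a was higher (2.98), but Bcl2a1a, b and d are near-identical copies and their counts are uncertain. Of 29 ribosomal protein genes none was called with all libraries by edgeR (1 at an unadjusted p under 0.05, and 1 called lower by DESeq2), and 1, Rpl4, was called lower without resting replicate 3 (-0.31).

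How far resting replicate 3 lay along the response was measured per gene as its distance from the mean of the other resting libraries, divided by the distance from that mean to the LPS mean, over genes at least 1 apart on the log2 scale. The measure is a description with no test. Over 1769 genes its median was 0.47, against -0.04 to 0.18 for the resting libraries of WT and 3F. It was 1.00 for interferon-stimulated genes, 1.00 for MHC class I, 0.98 for immediate early genes and 0.95 for the GTPases, that is, at the LPS level. It was 0.71 for the inflammasome, 0.68 for cytokines, 0.68 for glycolysis, 0.60 for chemokines and 0.58 for acute phase genes. For feedback inhibitors it was 0.14, for DNA replication 0.02 and for the eicosanoid genes -0.04, at the resting level.

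**Figure D4:**
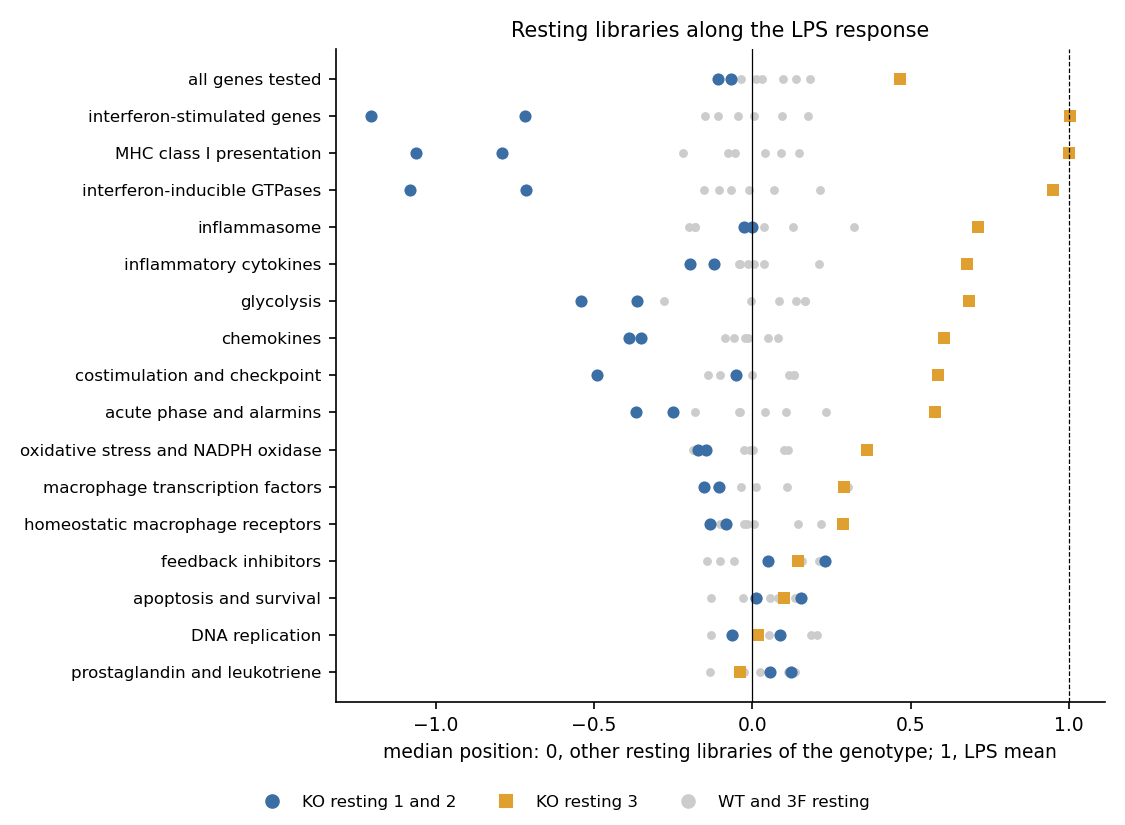
Median position of each resting library between the other resting libraries of its genotype (0) and the LPS mean (1, dashed line), over the genes of each list that differ by at least 1 on the log2 scale; squares are KO resting replicate 3, dark circles KO resting replicates 1 and 2, whose reference includes replicate 3, and pale circles WT and 3F. Replicate 3 is at 1.00 for interferon-stimulated genes and 0.02 for DNA replication.

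Leaving out resting replicate 3 added 1204 calls, 795 higher and 409 lower, and ended 226. Of the 795, resting replicate 3 was above both other resting libraries in 794, at or above the lowest LPS library in 607 and above all of them in 275. The 795 were chosen by the call that this library changed, so its place among them was largely set by that choice. Of the 1525 genes higher in both fits, it was above both other resting libraries in 1027. It was at or above the lowest LPS library in 52 of them. The 6 added calls with the largest change, at an average log2 CPM of at least 1, were Mx1, Phf11a, Ifi206, Ambp, Slfn1 and Oasl1. Slfn1, a schlafen protein, stood at 1.48, 0.994 and 90.3 CPM at rest and 45.7, 48.5 and 59.8 CPM with LPS (0.77, and 5.34 ± 0.80 without it), and Oasl1 at 4.02, 1.99 and 109 CPM at rest and 113, 153 and 93.5 CPM with LPS (1.68 and 5.28 ± 0.53). Ambp, a protease inhibitor of plasma, stood at 0.124, 0.0765 and 5.16 CPM at rest and 3.93, 5.79 and 3.92 CPM with LPS.

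Among the genes that resting replicate 3 alone made significant, Serpinb9b, a serpin, stood at 2.04, 4.43 and 25.3 CPM at rest and 0.964, 2.17 and 2.57 CPM with LPS (-2.42, adjusted p 0.013, and -0.75, adjusted p 0.18, without it). Abcb1a, a drug exporter, stood at 5.44, 2.83 and 17.9 CPM at rest and 1.86, 2.03 and 2.71 CPM with LPS and Flt1, a VEGF receptor, at 3.96, 2.6 and 16.3 CPM at rest and 2.96, 1.45 and 1.43 CPM with LPS. In these 3 genes resting replicate 3 was high and every other library low. The call of Serpinb9b (log2 fold change -2.10) was lost without LPS replicate 1.

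**Figure D5:**
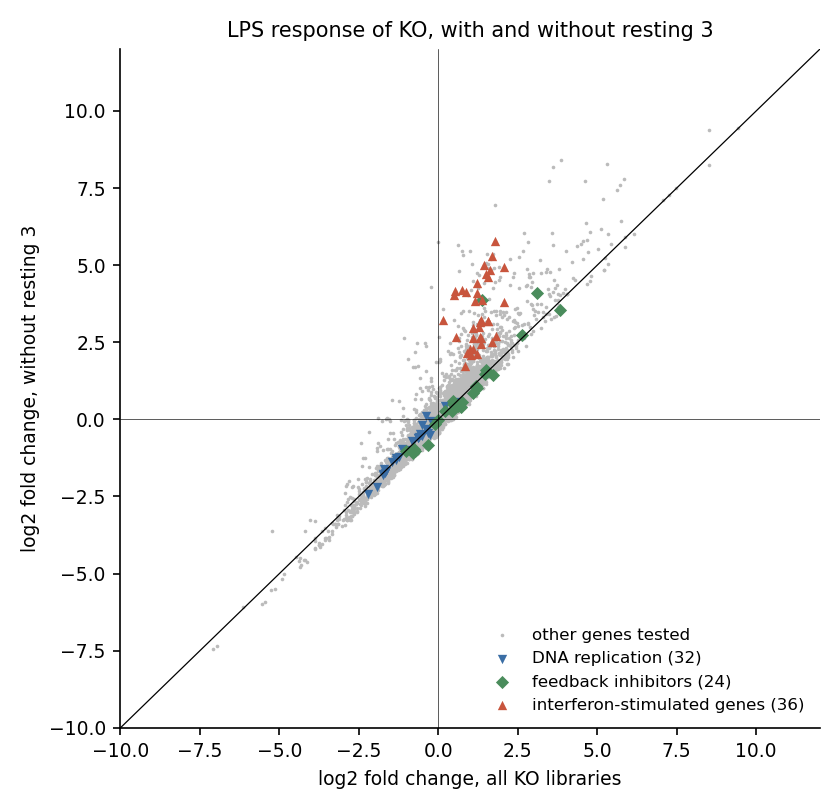
Log2 fold change of LPS over resting for each gene tested, with all KO libraries (horizontal) and without resting replicate 3 (vertical); the diagonal marks equal values. Interferon-stimulated genes (triangles) lie above the diagonal, with medians of 1.29 and 3.21, while DNA replication genes (inverted triangles) and most feedback inhibitors (diamonds) lie along it.

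The response was compared with that of WT, in which 3240 genes were called (28.5%), and of 3F, in which 3546 were (31.2%). KO and WT shared 2225 called genes, all in the same direction, 72.7% of the KO and 68.7% of the WT calls, and without resting replicate 3 they shared 2613 (64.7% and 80.6%). KO and 3F shared 2021, of which 2019 had the same direction (66.1% of the KO and 57% of the 3F calls). The difference between the responses, tested as an interaction by edgeR, was called for 1 gene against WT (0.00881%, with 560 at an unadjusted p under 0.05 and 23 called by DESeq2) and for 2 against 3F (0.0176%, with 1267 and 27). It was called without resting replicate 3 for 4 against WT (0.0352%, with 618 and 49) and 3 against 3F (0.0264%, with 1352 and 71). The comparisons with WT and with 3F share the KO libraries.

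Clmp, an adhesion molecule of the CTX family, was called against both. It stood at 17.7, 11.2 and 10.3 CPM in resting KO and 51.9, 58.9 and 46.1 CPM in KO with LPS, against 2.69, 1.96 and 3.19 CPM (resting) and 37.8, 40.9 and 38 CPM (LPS) in WT and 2.65, 2.43 and 1.64 CPM (resting) and 48.9, 44.4 and 43 CPM (LPS) in 3F. All resting KO libraries were above every resting WT and 3F library, and with LPS they were above every WT library. The difference of log2 fold changes was -1.92 ± 0.28 (SE), adjusted p 0.037 against WT, and -2.26 ± 0.28 (SE), adjusted p 0.0058 against 3F. These values treat all libraries as independent. In a fit with the replicate number as a block, the call against WT was lost (-1.89) and that against 3F kept (-2.26). Without resting KO replicate 3 the block ended both (-1.95 and -2.32). In that fit LPS KO replicate 3 had no resting library of its number, so it did not bear on the KO response. Against WT the call was lost without any 1 WT library (-2.07 to -1.75) and without any 1 LPS library of KO (-2.03 to -1.84), and against 3F it was lost without 3F resting replicate 2 (-2.28).

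Arhgap22, which switches off Rac, fell further in KO than in 3F, at 52.7, 54.3 and 51.8 CPM at rest and 5.85, 5.21 and 6.7 CPM with LPS in KO, and 48, 52.8 and 55.3 CPM (resting) and 13.4, 11.5 and 15 CPM (LPS) in 3F (difference -1.18 ± 0.17 (SE), adjusted p 0.019). That call was lost in 7 of the 12 fits that left out 1 library of KO or 3F, and with the replicate number as a block (-1.19). In the fit without resting replicate 3, Ccnd1 (cyclin D1), at 161, 199 and 286 CPM resting and 60.1, 56.4 and 55.3 CPM with LPS in KO, and 251, 272 and 253 CPM (resting) and 164, 169.8 and 196 CPM (LPS) in WT, differed by -1.10 ± 0.15 (SE), adjusted p 0.016. Cd300lb, an activating receptor of myeloid cells, differed by -0.89 ± 0.13 (SE), adjusted p 0.019, and Gprc5b by 2.26 ± 0.36 (SE), adjusted p 0.03 against WT and 2.48 ± 0.36 (SE), adjusted p 0.025 against 3F. Gprc5b stood at 18, 18.8 and 97.5 CPM in resting KO, where replicate 3 was far above the others, and its LPS response turned from -0.31 to 0.95 without that library. With the replicate number as a block, the calls of Ccnd1, Cd300lb and Gprc5b without resting replicate 3 were all lost, in a fit where LPS KO replicate 3 did not bear on the response.

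By list, the interferon-stimulated genes had a median difference from WT of -3.10 on the log2 scale with 30 of 36 at an unadjusted p under 0.05, and -0.94 with 15 of 36 without resting replicate 3, but none was called in either fit by edgeR. Their median response was 4.36 in WT and 4.26 in 3F, and Ifit1 rose by 6.56 in WT and 6.13 in 3F. In resting WT it stood at 4.8, 4.89 and 18.1 CPM. Mitosis genes had a median difference of 0.64 (0.55 without resting replicate 3), but none of the 30 was called, and 0 were at an unadjusted p under 0.05 with all libraries and 1 without resting replicate 3. Mki67 stood at a log2 fold change of -1.04 in WT and -0.15 in KO. Over all genes tested the median difference was -0.02.

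No difference in response from WT was called for the cytokines Il1b, Tnf and Il6. The difference was 0.89 for Il1b (adjusted p 1) and -0.36 for Tnf (adjusted p 1). With LPS Il1b stood at 112, 53.4 and 122 CPM in WT, Tnf at 159, 143 and 148 CPM and Il6 at 0.419, 0.273 and 0.733 CPM. In each of these genes every KO library with LPS lay above every WT library with LPS, a contrast of levels that was not tested. The paper reports more IL-6 protein from KO than from WT BMDMs after LPS. A missed threshold does not show equal responses, since with 3 libraries a group the standard error of the difference was 0.99 for Il1b and 0.29 for Tnf.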

How the data were processed

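RNA was depleted of rRNA (Ribo-Zero Gold), made into strand-specific libraries (NEBNext Ultra II Directional) and sequenced on a NextSeq500. The authors trimmed adapters (cutadapt 1.8.3), removed rDNA reads, aligned to mm10 (HISAT2 2.1.0) and counted reads by gene on the stated strand (featureCounts 1.5.3, GENCODE annotation). The deposited values are raw counts per protein-coding gene, 4071084 to 19818043 a library. Genes were filtered by filterByExpr and scaled by TMM, and the 6 groups were fitted together with edgeR 4.0.16 (R 4.3.3, quasi-likelihood F test, two-sided, Benjamini-Hochberg adjustment over the 11357 genes tested). The fit was repeated without resting KO replicate 3, and under the alternatives given in the closing section (DESeq2 1.42.0, limma 3.58.1). CPM used the TMM-scaled library size, log2 CPM a prior count of 2, and figures matplotlib 3.10.9. An exact permutation test of 3 against 3 libraries cannot go below 0.1, so none was used for single genes. The scripts were tested on simulated data.

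The libraries and gene lists were chosen with earlier results of these data known. Genes were named by rule: the 14 with the largest rise and the 14 with the largest fall called in both fits without overlap between groups and with an average log2 CPM of at least 1, up to 4 called genes of each list by size of change, the 6 largest called only without resting replicate 3 and the 3 largest called only with it, the genes called in a difference between genotypes, and a set of pathway genes named whatever they showed. Further members of a list were named after their values were seen. Some genes are not reported here.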

Additional observations from a re-analysis of the deposited data

Results flagged for a closer look

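Differences between the LPS response of KO and that of another genotype passed the test of the difference itself (edgeR interaction, adjusted p under 0.05) for 5 genes. Clmp rose less in KO, by -1.92 on the log2 scale against WT and -2.26 against 3F, and by -2.06 and -2.39 without resting KO replicate 3. Arhgap22 fell further in KO than in 3F, by -1.18, and by -1.20 without that library. The other differences passed only without it, namely Gprc5b at 2.26 against WT and 2.48 against 3F, Ccnd1 at -1.10 against WT and Cd300lb at -0.89 against WT. With 1 further KO library left out of the fit without resting replicate 3, the call was lost in 3 of 5 fits for Ccnd1, 3 of 5 for Cd300lb, 4 of 5 for Gprc5b against WT and 3 of 5 against 3F, and 4 of 5 for Arhgap22, and in 0 of 5 for Clmp against either. These fits left out no WT or 3F library, whereas from all libraries the call of Clmp against WT was lost in 9 of 12 fits, those without any 1 WT library included. With the replicate number as a block, of the calls from all libraries only that of Clmp against 3F was kept. Without resting KO replicate 3 the block ended every call, but LPS KO replicate 3 then had no resting library of its number and did not bear on the response. The causes of these differences were not tested.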

How the results depend on the processing

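Over all genes, the count called in the LPS response of KO (3059) was 2154 to 4037 when 1 KO library was left out, and 6073 with limma-voom and sample quality weights. Without resting replicate 3 (4037 called) it was 2640 to 3618 when a further library was left out, with resting replicate 1 (2662) and resting replicate 2 (2640) moving it most and leaving 1 resting library, assumed to vary like the other groups. The difference from WT (1 called) gave 2 with no filter on low counts, 23 with DESeq2, 57 with limma-voom, 0 with the compared genotypes fitted alone and 0 to 4 with 1 library left out, and the difference from 3F (2 called) gave 4, 27, 118, 0 and 0 to 3. Without resting KO replicate 3 these were 23, 49, 68, 11 and 1 to 5 against WT (4 called), and 28, 71 and 151 with no filter, DESeq2 and limma-voom, and 1 to 4 with 1 library left out, against 3F (3 called). The small counts of differences therefore depend on the test and on single libraries.

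By the labels 3 mice of each genotype gave the marrow of its 6 libraries, so libraries shared mice. The main fit treated all libraries as independent. Same-numbered libraries are not stated to share an animal. Their deviations correlated at 0.318, 0.0283 and 0.044 in KO, and 8 of 9 resting libraries over the genotypes correlated best with the LPS library of their own number. With the replicate number as a block 3019 genes were called in KO (3645 without resting replicate 3), 0 in the difference from WT and 2 in that from 3F, and 0 in both without resting KO replicate 3. The block ended the calls of Clmp against WT (-1.89) and Arhgap22 against 3F (-1.19) and kept that of Clmp against 3F (-2.26), and without resting KO replicate 3 it ended every call of a difference. In the block fits without that library, LPS KO replicate 3 had no resting library of its number. It therefore did not bear on the KO response there, and the loss of calls cannot be laid to the block alone.

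Of 160 named genes, values with all libraries under the alternatives kept their side of the threshold and direction in 1744 cases, lost the call in 145, gained it in 27 and reversed in 4. With 1 library left out, log2 fold changes ran from -0.54 to 8.28 for Chil1, from -0.41 to 0.37 for Mrc1 and from -0.69 to 0.95 for Gprc5b. The reversals were Chil1 without LPS replicate 3 (-0.54), Mrc1 without resting replicate 3 (-0.41), and Gprc5b without resting replicate 3 (0.95) and with limma-voom (0.75). Without resting replicate 3 the cases were 1664, 61, 35 and 0. The cause was not tested. The median position of resting replicate 3 was 0.47, and 0.46 with a prior count of 0.5.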
